A study of Mus musculus with 45 samples.

Results

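The skeletal muscle fibre genes were a list of 38 genes that encode the contractile apparatus, the calcium handling system and the energy enzymes of striated muscle, and they were followed in inguinal fat, the subcutaneous fat pad of the groin. A gene was taken as measured when a probe of the array carried its symbol and no other, which held for 30 of the 38 genes, out of 13840 genes measured in this way in all. The 8 genes without such a probe were Actn2, Myh1, Myh2, Myh4, Casq1, Cacna1s, Neb and Trdn, so the 3 adult fast myosin heavy chains were not followed. The tissue came from C57BL/6J mice raised under 3 conditions between birth and weaning. The paper names males where it describes the housing after weaning. In the under-nutrition group (LUN) dams were given 50% of a control dam's food and nursed litters of 8 pups. In the over-nutrition group (LON) the dams ate a diet with 58% of its energy as fat and nursed litters of 4 pups. Control dams had free access to a breeder diet with 22% of its energy as fat and nursed litters of 8 pups. From weaning all mice received the same chow (11% of energy as fat) to 8 weeks of age and then the same high fat diet for 8 weeks. RNA was taken at days 5, 10, 21, 56 and 112, so that only the day 112 groups had been given the high fat diet after weaning. Each of the 15 groups was 1 pool of RNA from 12 mice, hybridized to 3 arrays. Differences between the arrays of a group are therefore technical. All p-values measure that spread alone, except those of a fit to the 15 pool means. Diet cannot be told apart from the particular pool of mice that stands for it. In the authors' own normalized log2 values the LON arrays had a median of 9.815, against 9.779 to 9.784 in LUN and control arrays. The LON arrays were also labelled in a format of their own. A difference in handling between these sets of arrays cannot be told apart from over-nutrition.

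Striated muscle contracts when calcium released through the ryanodine receptor (Ryr1) binds troponin on the actin filament and lets myosin pull on it, and the calcium pump and parvalbumin then clear the calcium again. Fast-twitch and slow-twitch fibres build this machine from different paralogs: Tnnt3, Tnni2 and Tnnc2 are the fast troponins, and Tnnt1, Tnni1 and Tnnc1 the slow ones, with Tnnc1 also used in the heart. Skeletal fibres of the adult use the alpha-actin Acta1, while the cardiac alpha-actin Actc1 is the form of the heart and of immature skeletal muscle. Adipocytes do not build sarcomeres. The inguinal pad lies against the muscles of the thigh and the abdominal wall. In RNA from a whole pad, fewer cells of a type and less RNA per cell cannot be told apart.

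Promoters are shown for 4 genes. Acta1 and Pvalb followed the mean of the other members over the 15 groups (r = 0.965 and 0.838). Actc1 and Tnnt1 followed it less closely (0.618 and 0.128). Sequences are those of RefSeq on GRCm38.p6, from 250 bases before to 50 bases after the annotated start, each read 5′ to 3′ on the gene's own strand. Acta1 is chr8:123894726-123895025, Actc1 chr2:114052826-114053125, Pvalb chr15:78206351-78206650 and Tnnt1 chr7:4515926-4516225, all on the minus strand. Capitals mark a CArG box (the serum response factor motif, in Acta1 and Actc1), a MEF2 site (in Pvalb) or the letters TATAAA (in Acta1, Actc1 and Tnnt1), searched on both strands.
Acta1: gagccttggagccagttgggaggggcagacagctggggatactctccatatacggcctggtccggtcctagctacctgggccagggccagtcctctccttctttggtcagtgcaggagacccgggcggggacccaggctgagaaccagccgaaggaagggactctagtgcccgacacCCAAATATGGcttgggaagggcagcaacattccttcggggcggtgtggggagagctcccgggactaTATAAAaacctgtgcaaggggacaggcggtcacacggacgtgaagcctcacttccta
Actc1: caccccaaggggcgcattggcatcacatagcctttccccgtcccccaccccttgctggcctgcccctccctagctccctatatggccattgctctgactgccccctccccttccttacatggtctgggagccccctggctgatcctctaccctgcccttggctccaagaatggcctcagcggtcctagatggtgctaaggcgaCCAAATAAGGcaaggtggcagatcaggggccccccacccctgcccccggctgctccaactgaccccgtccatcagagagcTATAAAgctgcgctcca
Pvalb: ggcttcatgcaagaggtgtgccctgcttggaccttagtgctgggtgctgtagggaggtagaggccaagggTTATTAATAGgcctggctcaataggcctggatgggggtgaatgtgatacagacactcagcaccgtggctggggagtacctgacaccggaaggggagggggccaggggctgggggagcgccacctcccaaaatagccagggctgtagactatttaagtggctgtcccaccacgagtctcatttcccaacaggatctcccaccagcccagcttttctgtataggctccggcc
Tnnt1: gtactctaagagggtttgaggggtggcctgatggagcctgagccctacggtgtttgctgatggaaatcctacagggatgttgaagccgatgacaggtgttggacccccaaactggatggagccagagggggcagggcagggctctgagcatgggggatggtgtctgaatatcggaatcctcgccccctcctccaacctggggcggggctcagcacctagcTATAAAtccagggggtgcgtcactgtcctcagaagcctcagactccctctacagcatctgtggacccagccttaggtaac
Both alpha-actin windows held a CArG box, and the courses of the genes are compared further on. A promoter was listed for 24 of the 30 measured genes. A CArG box was in 4 of these (16.7%), in Acta1, Actc1, Ldb3 and Myom1, against 1.57% of 27025 promoters of all genes. A MEF2 site was in 3 (12.5%), in Pvalb, Pgam2 and Ttn, against 1.89%. TATAAA was in 4 (16.7%) against 14.2%, and the E-box CANNTG in 21 (87.5%) against 72.1%. None of the 4 slow fibre promoters held a CArG box or a MEF2 site in this window. Of 6 fast fibre promoters, 0 held a CArG box and 1 a MEF2 site, so these counts do not set the classes apart. No match shown here overlaps another. These matches describe letters only.

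Signals below are quantile-normalized array intensities on a linear scale, and differences are log2 differences of group means from a limma fit to 33012 probes with the Benjamini-Hochberg adjustment over all of them. A gene was called when its adjusted p was under 0.05. The raw medians of the 45 arrays lay between 545 and 1459, and arrays correlated with the other arrays of their group at a mean of 0.806 to 0.963. The 3 lowest were control day 112 replicate 2 (0.806), LUN day 5 replicate 3 (0.850) and LON day 21 replicate 3 (0.856). The normalized signal of the median probe was 756. The number of arrays limits the precision.

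Several muscle probes were among the brightest of the array in every pool, which ranks probe brightness and not transcript amounts. Acta1, the skeletal alpha-actin, exceeded 93.0% of all probes in the pool where it was lowest (control, day 56) and 99.9% where it was highest (LON, day 56). Myl1, the fast alkali light chain of myosin, lay between the 97.8th and the 99.9th percentile of probes. Of the 30 genes, 16 were above the median probe in all 15 groups. The dimmest were Tcap, the titin cap protein, which was below the median probe in 14 groups, and Tnni1, slow troponin I, which was below it in 12. The range of a gene between its highest and lowest group was 64.7-fold for Ckm, 41.5-fold for Acta1 and 2.88-fold for Tpm2, beta-tropomyosin, genes that stayed above the median probe throughout. For Actc1 (294-fold) and Pvalb (272-fold), the calcium buffer of fast fibres, the lowest group lay below the median probe and was not shown to be above background, so that the exact fold is uncertain.

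**Figure D1:**
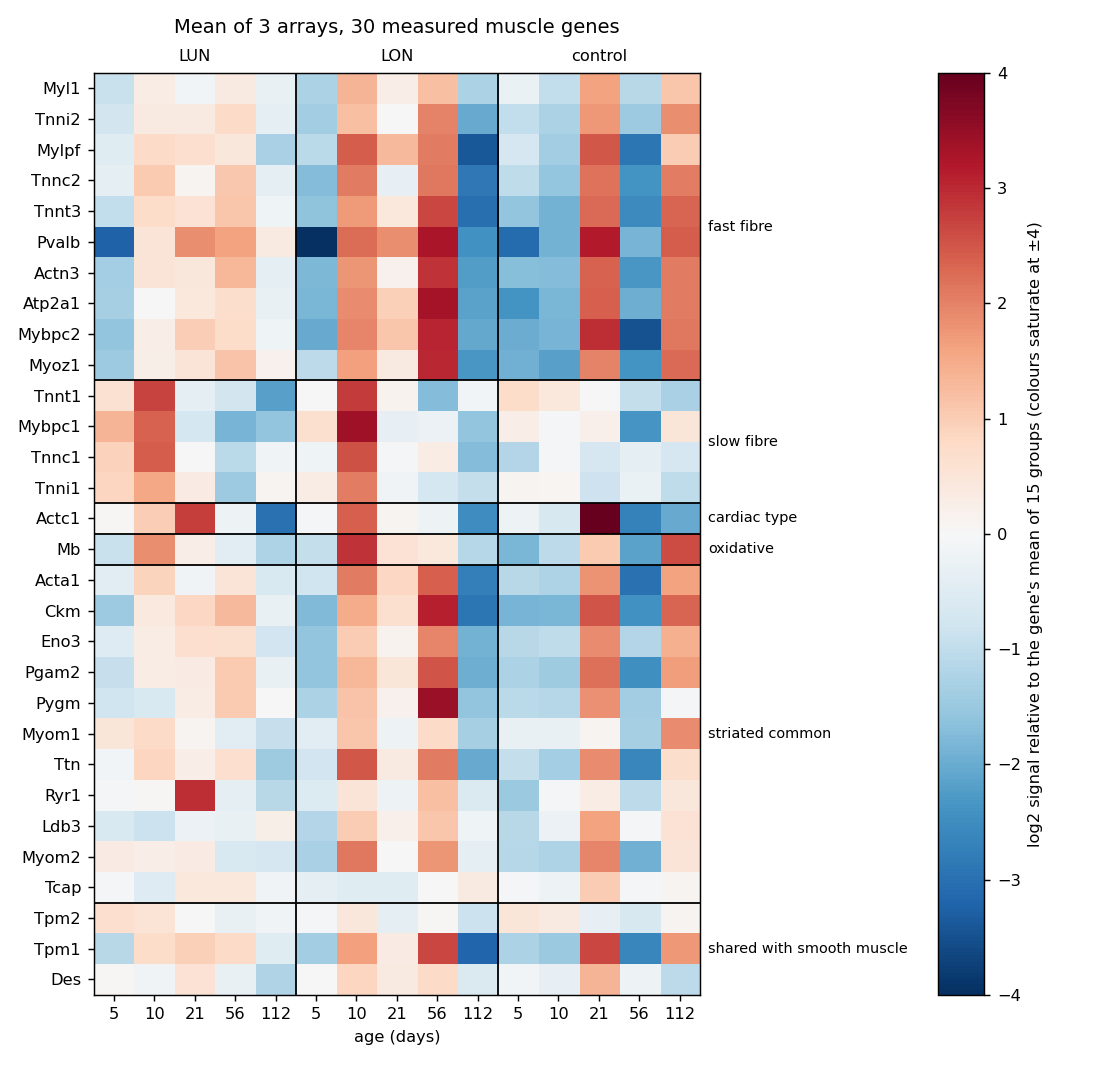
Mean log2 signal of 3 arrays for each of the 30 measured genes (rows, grouped by role) in each of the 15 groups (columns: LUN, LON and control, each from day 5 to day 112), relative to the gene's own mean of the groups. The fast fibre block is red in LON at days 10 and 56 and in control at days 21 and 112, and the slow fibre block is red at day 10 in LUN and LON.

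The 10 measured genes of fast fibres moved as a block. Their class mean, given here as log2 signal relative to the mean of all 45 arrays, was highest in LON day 56 (2.56), control day 21 (2.31), control day 112 (1.93) and LON day 10 (1.82). It was lowest in LON day 112 (-2.37), control day 56 (-2.24), LON day 5 (-1.86), control day 10 (-1.66) and control day 5 (-1.56). In LUN it ran through -1.25, 0.48, 0.58, 0.93 and -0.28 at the 5 ages, a narrower span than in LON or control. The 3 arrays of a pool lay close together, with an SD between 0.015 (control, day 112) and 0.31 (LUN, day 5). Over the 15 group means the 45 pairs of fast genes had a median correlation of 0.94 (range 0.78 to 0.99), a description over groups that share arrays and normalization.

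**Figure D2:**
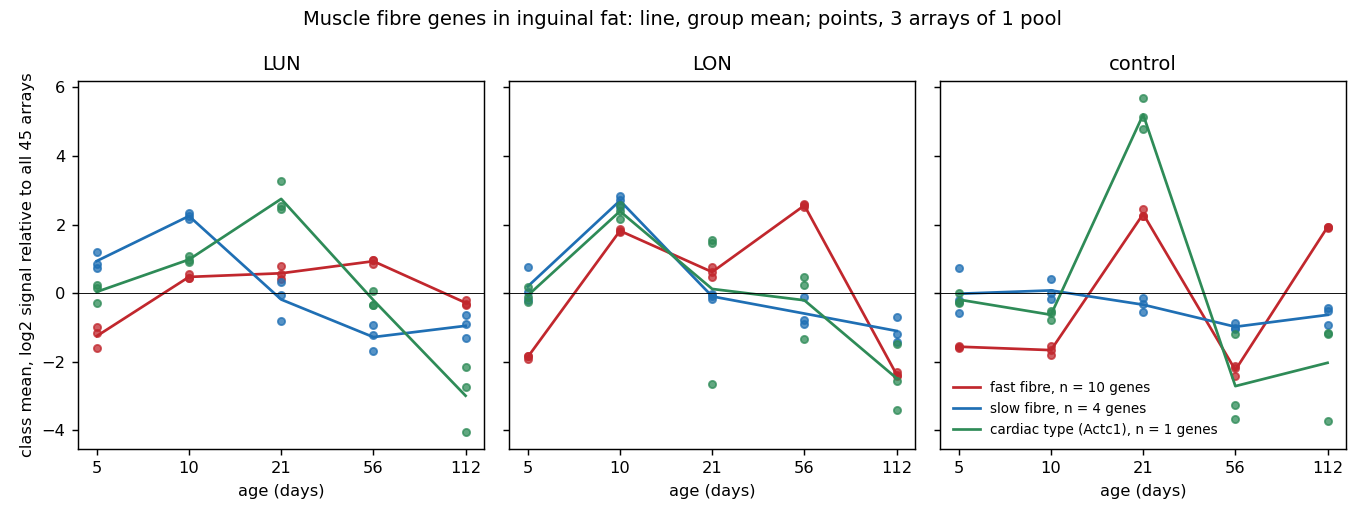
Class means of fast fibre genes (10), slow fibre genes (4) and Actc1 against age, with 1 panel each for LUN, LON and control, in log2 signal relative to all 45 arrays. Points are arrays and lines join the means of 3 arrays; fast genes of control mice were high at days 21 and 112, those of LON mice at days 10 and 56, and slow genes at day 10 in LUN and LON.

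At day 10 the muscle genes were higher in both malnourished groups than in control mice. In LUN, 20 of the 30 genes were higher and none lower, beside 0.573% of all probes that were higher, and the median of the 30 differences was 1.98 (all probes -0.022). In LON, 22 were higher and none lower, beside 0.660% of all probes, with a median of 3.07 (all probes -0.038). Both comparisons use the same 3 control arrays. All 10 fast genes were called in each. Ckm, the creatine kinase that buffers ATP in muscle, gave 33100, 31200 and 28700 in LUN and 61300, 72100 and 64600 in LON, against 6920, 6800 and 6520 in control arrays. No array of a malnourished group overlapped a control array. The differences were 2.20 for LUN (standard error 0.19, adjusted p = 1.64e-09) and 3.29 for LON (0.19, adjusted p = 4.40e-14). Pvalb gave 26700, 33400 and 28400 in LUN and 83600, 121000 and 90700 in LON, against 4990, 5560 and 6040 in control arrays, or 5.33-fold and 17.6-fold more on the log2 means. Myl1 gave 388000, 509000 and 653000 in LUN and 928000, 971000 and 1300000 in LON, against 245000, 228000 and 165000 in control arrays. Its difference was 1.27 in LUN, which lost its call without control day 10 replicate 3 (adjusted p = 0.0515), and 2.33 in LON.

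At day 5 the groups were close. Atp2a1, the SERCA1 calcium pump of fast fibres, was the single gene higher in LUN (0.554% of all probes were higher), with 4890, 3100 and 1860 in LUN against 1780, 1340 and 1310 in control arrays. Pvalb and Myl1 were the 2 genes lower in LON (0.703% of all probes were lower). Pvalb gave 1040, 663 and 579 in LON against 3180, 2320 and 1970 in control arrays, a difference of -1.73 (standard error 0.28, adjusted p = 2.66e-04). The call of Myl1 in LON was lost without any of 3 single arrays (control replicate 2, and LON replicates 1 and 2), with an adjusted p of at most 0.142.

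At day 21 the order was turned: in LUN 16 of 30 genes were below their control level (1.14% of all probes were lower) and 18 were lower in LON (0.485% of all probes), with medians of -1.59 and -1.46, and none was higher. All 10 fast genes were again called in both, although Pvalb in LON lost its call without LON replicate 1 (adjusted p = 0.0619). Ckm gave 43100, 40300 and 41800 in LUN and 33300, 34400 and 43300 in LON, against 148000, 138000 and 122000 in control arrays. Acta1 gave 241000, 236000 and 265000 in LUN, against 844000, 1040000 and 935000 in control arrays, a difference of -1.92 (standard error 0.22, adjusted p = 3.39e-07). In LON, with 523000, 446000 and 473000, the difference was -0.96 and was lost without control replicate 2 or LON replicates 2 or 3 (adjusted p up to 0.0746). Fitted on the arrays of the compared groups alone, no gene was called in either comparison, and with median scaling 10 were called in LON.

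At day 56, on chow, the muscle genes were again higher in the malnourished groups, and the differences of LON were the widest of the series. In LUN, 16 genes were higher (0.161% of all probes were higher) with a median of 2.35, and in LON 21 were higher (0.654% of all probes) with a median of 3.56, beside a median of all probes of -0.033 and -0.10. Acta1 gave 357000, 402000 and 399000 in LUN and 1260000, 1300000 and 1750000 in LON, against 30100, 34100 and 38800 in control arrays. The LON pool was 41.5-fold and the LUN pool 11.3-fold above control. Ckm gave 63600, 55200 and 56800 in LUN and 230000, 202000 and 185000 in LON, against 5950, 4500 and 3230 in control arrays. Mybpc2, the fast myosin binding protein C, gave 43200, 30600 and 36800 in LON against 690, 196 and 445 in control arrays. Its difference of 6.54 (standard error 0.32, adjusted p = 9.67e-17) is set against control signals below the median probe, which were not shown to be above background. Tpm1, alpha-tropomyosin, which fast muscle shares with smooth muscle, followed the fast genes with 70700, 57900 and 67100 in LUN and 228000, 207000 and 295000 in LON, against 7160, 5400 and 6520 in control arrays.

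At day 112, after 8 weeks of high fat diet, the sign changed once more. In LUN, 19 genes were lower (0.376% of all probes were lower) with a median of -2.07, and in LON 20 were lower (0.897% of all probes) with a median of -3.27. Tnnt3, fast troponin T, gave 47200, 57000 and 49700 in LUN and 7520, 6440 and 7280 in LON, against 257000, 345000 and 273000 in control arrays. Its difference in LON was -5.35 (standard error 0.20, adjusted p = 9.99e-20). Pvalb gave 24700, 28800 and 27200 in LUN and 3790, 3810 and 3900 in LON, against 117000, 116000 and 102000 in control arrays. The control pool at this age held the array with the lowest agreement. In that array Pygm, the muscle glycogen phosphorylase, read 411 beside 18800 and 19400 in the other control arrays, and Ttn, titin, read 2340 beside 10000 and 10400. Without it Pygm differed by -1.79 in LUN (adjusted p = 2.9e-04), against 0.06 with it. Fitted on the arrays of the compared groups alone, 0 genes were called in LUN at day 112, 8 at day 56 and 12 at day 10.

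**Figure D3:**
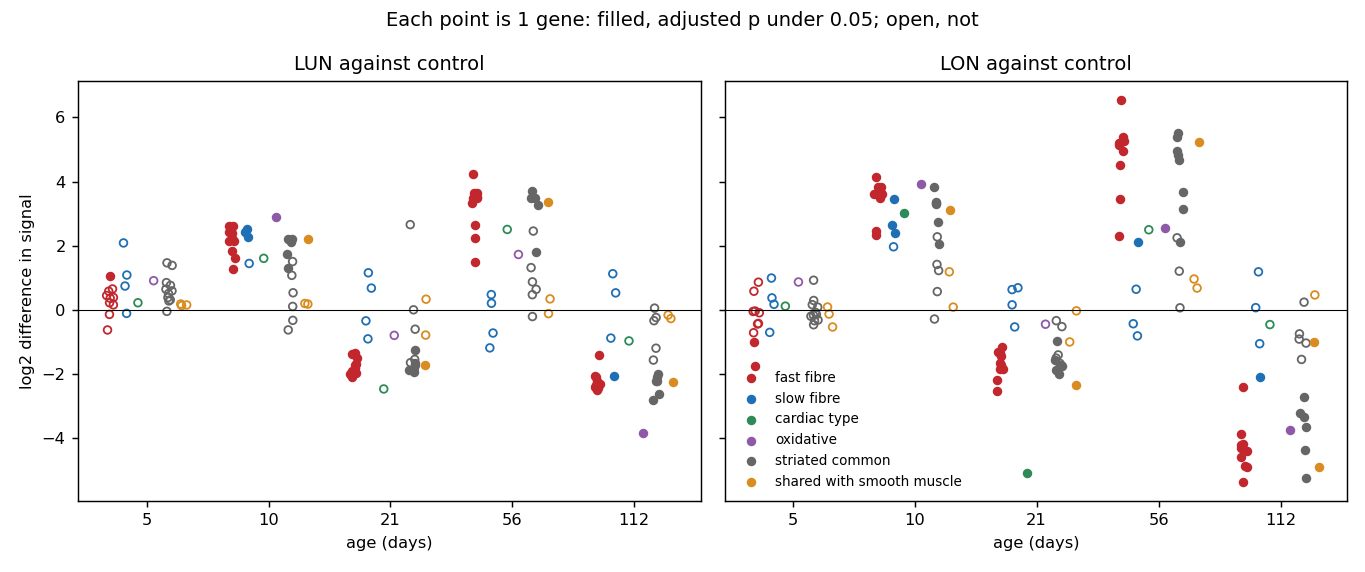
Log2 differences of LUN (left) and LON (right) from control for each of the 30 genes at each age in days, coloured by role; filled points passed an adjusted p of 0.05. Filled fast fibre points lie above 0 at days 10 and 56 and below 0 at days 21 and 112 in both panels.

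The sign of the median difference thus alternated with age from day 10 on in both groups, and the control pools themselves changed with age. In control mice 19 genes were higher at day 21 than at day 10 (2.13% of all probes were higher) with a median change of 3.01, and 22 were lower at day 56 than at day 21 (1.16% of all probes were lower) with a median of -3.55. In LON 17 genes were lower at day 21 than at day 10 (1.41% of all probes) with a median of -1.22, and 16 were higher at day 56 than at day 21 (0.763% of all probes) with a median of 1.5. In LUN few genes passed: 1 gene was higher (2.13% of all probes) and 4 lower (2.12%) at day 21 than at day 10, and 1 was higher (3.19%) and 1 lower (3.24%) at day 56 than at day 21. The gene higher at day 21 in LUN was Pvalb, with 78500, 71900 and 72400 at day 21 against 26700, 33400 and 28400 at day 10. The 4 lower ones were Acta1 and the slow genes Tnnt1, Tnnc1 and Mybpc1. At day 56 against day 21 in LUN the higher gene was Actn3, alpha-actinin of fast fibres (0.86), and the lower one Actc1 (-2.96).

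The change between day 10 and day 21 was compared between diets by an interaction contrast. It was lower for 20 genes in LUN than in control mice (0.409% of all probes were lower) with a median of -3.46, and for 20 genes in LON (0.324% of all probes) with a median of -4.33. Ckm differed by -3.90 in LUN (standard error 0.27, adjusted p = 1.11e-11) and by -5.17 in LON (0.27, adjusted p = 2.73e-15). All 10 fast genes passed in each. From day 5 to day 10 the fast genes had a median change of 1.57 in LUN and 3.53 in LON, each positive for 10 of 10 genes, and of -0.28 in control mice, positive for 3 of 10. From day 56 to day 112 none of the 10 changed upward in LUN or LON, with medians of -1.20 and -5.22, while the median in control mice was 4.34, positive for 10 of 10.

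The slow fibre genes took a course of their own. Their class mean stood at 2.25 in LUN day 10 and 2.70 in LON day 10, and the next highest was LUN day 5 at 0.94. In the pools where fast genes were high and slow genes not, it was -0.34 (control, day 21), -0.63 (control, day 112) and -0.59 (LON, day 56). The difference between the fast and the slow class mean was -1.78 in LUN and -0.88 in LON at day 10, against 3.15 in LON at day 56, 2.65 in control at day 21 and 2.56 in control at day 112. Over the 15 groups, fast and slow genes had a median correlation of 0.18, against 0.77 among the 6 pairs of slow genes. The slow genes were dimmer: Tnnt1, Tnnc1, Mybpc1 and Tnni1 were below the median probe in 3, 3, 4 and 12 groups. Among fast genes only Mybpc2, Pvalb and Myoz1 were below it, in 1, 1 and 5 groups. Low values of the slow class mean are therefore less certain.

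**Figure D4:**
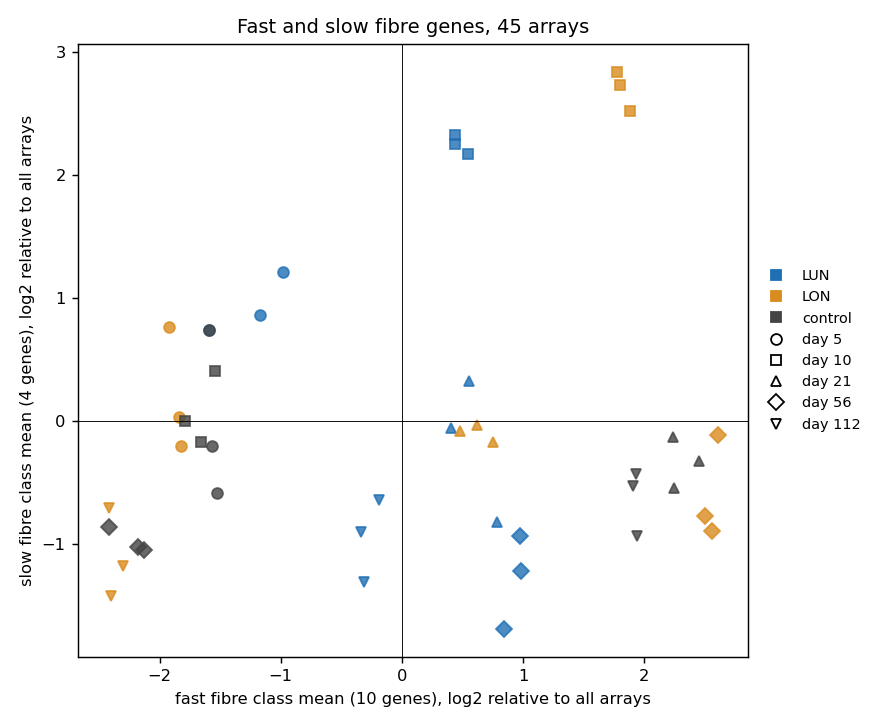
Slow fibre class mean (4 genes) against fast fibre class mean (10 genes) for the 45 arrays, in log2 signal relative to all arrays; colours are LUN, LON and control and symbols are ages. The day 10 arrays of LUN and LON stand alone at the top, and the arrays with the highest fast class mean lie at or below 0 on the slow axis.

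Tnnt1, slow troponin T, gave 15100, 9820 and 9830 in LUN and 12100, 11800 and 12900 in LON at day 10, against 2410, 2110 and 2450 in control arrays. All malnourished arrays were above all control arrays. The differences were 2.29 (standard error 0.52, adjusted p = 0.0140) and 2.40 (0.52, adjusted p = 0.0105). They were lost when single arrays were left out, in LUN without any of the control arrays or without LUN replicate 1 and in LON without control replicate 2 or LON replicate 3, with an adjusted p of at most 0.0722. In LON at day 56, where fast genes were at their highest, Tnnt1 gave 237, 792 and 752, against 1050, 1300 and 550 in control arrays. The groups overlapped there.

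Mybpc1, the slow myosin binding protein C, gave 7500, 6920 and 7280 in LUN and 13700, 17200 and 13500 in LON at day 10, against 1210, 1700 and 1190 in control arrays. The differences of 2.42 (standard error 0.39, adjusted p = 2.57e-04) and 3.45 (0.39, adjusted p = 1.92e-07) kept their call without any 1 array. Mybpc1 was the slow gene with calls at later ages too. At day 112 it was lower in LUN (601, 330 and 541) and LON (1020, 319 and 317) than in control mice (2790, 1230 and 2280), a call that LUN lost without its replicate 2 (adjusted p = 0.0637). It was also higher in LON at day 56. Its change between day 10 and day 21 differed from that of control mice by -3.32 in LUN (adjusted p = 4.66e-04) and -3.98 in LON (adjusted p = 2.62e-05), the single slow gene for which this contrast passed. For Tnnt1 it was -2.63 (adjusted p = 0.0729) and -2.24 (adjusted p = 0.403).

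Tnnc1, the troponin C of slow fibres and heart, gave 7720, 7280 and 6060 in LUN and 7590, 7420 and 7880 in LON at day 10, against 1480, 1110 and 1100 in control arrays. Its differences of 2.52 and 2.65 were called, and both calls depended on single arrays. The call was lost in LUN without any 1 of the 6 arrays (adjusted p at most 0.0917) and in LON without 5 of the 6 (adjusted p at most 0.0933). Tnni1 gave 840, 1830 and 1350 in LUN and 2990, 1830 and 1130 in LON, against 1030, 358 and 278 in control arrays. It was highest at day 10 in the same groups, but its differences of 1.45 and 1.97 did not pass (adjusted p = 0.393 and 0.280), at signals near the median probe.

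Genes that slow fibres share with the heart were drawn from a separate list of 11, of which 10 were measured. At day 10, 2 were higher in LUN and 4 in LON and none was lower. Myh7, the slow and cardiac myosin heavy chain, gave 7610, 9010 and 8000 in LUN and 14900, 13400 and 15900 in LON, against 885, 1040 and 1390 in control arrays. Its differences were 2.91 (standard error 0.44, adjusted p = 8.86e-05) and 3.76 (0.44, adjusted p = 3.60e-07). In LON day 56 it gave 346, 549 and 653, against 465, 753 and 1170 in control arrays, values that overlapped as those of Tnnt1 did. The list was not uniform in that comparison, with 5 positive and 5 negative differences. Its 1 call by limma was Hspb6, which was higher (1.47, adjusted p = 0.0322). Myl3, the slow and ventricular alkali light chain, gave 5420, 6960 and 6040 in LUN and 8640, 9540 and 7320 in LON at day 10, against 1740, 2450 and 2540 in control arrays. Myoz2, a Z-disc protein of slow fibres and heart, was higher in LON (4400, 5140 and 6560, against 640, 900 and 549 in control arrays). Sln, sarcolipin, a small inhibitor of the calcium pump from the list of other muscle genes, gave 16100, 21100 and 17900 in LON day 10, against 3420, 2450 and 3830 in control arrays, a difference of 2.52 (adjusted p = 0.0197).

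Genes that define heart muscle passed in no diet comparison, a count near the share of all probes. That share lay between 0.0424% (LUN, day 56, lower) and 1.57% (LUN, day 21, higher) in each direction. Of 12 measured, among them Myh6, Nppa, Nppb, Tnni3, Mybpc3, Myl7, Ryr2, Nkx2-5 and Gata4, 0 were called by limma in any of the 10 diet comparisons, with 12 of 120 tests at an unadjusted p under 0.05. Mybpc3 and Gata4 were below the median probe in 14 of the 15 groups, Nppb and Ryr2 in 13 and Myh6 in 10. Nppa, Myl7 and Nkx2-5 were above it in all groups.

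Actc1, the cardiac alpha-actin, differed from both courses. At day 21 it gave 21500, 35800 and 20500 in LUN and 10300, 10800 and 597 in LON, against 130000, 103000 and 194000 in control arrays. The groups did not overlap. The difference was -5.09 in LON (standard error 0.74, adjusted p = 6.33e-05) and -2.46 in LUN, which did not pass (adjusted p = 0.0694). The third LON array is one of the 3 with the lowest agreement, and without it the difference in LON was -3.71 (adjusted p = 0.00127). At day 10 Actc1 gave 7840, 6950 and 7260 in LUN and 19700, 22300 and 16700 in LON, against 2150, 2570 and 2520 in control arrays. Its difference in LON, 3.02, was called (adjusted p = 0.0404) but lost without any 1 of the 6 arrays (adjusted p at most 0.178). At day 112, where Acta1 in control mice gave 1100000, 824000 and 626000, Actc1 gave 831, 551 and 224 in LUN and 1330, 629 and 353 in LON, against 282, 1670 and 1610 in control arrays. Those values overlapped, and the differences of -0.96 and -0.45 did not pass. Over the 15 groups Actc1 had a median correlation of 0.50 with the fast genes.

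**Figure D5:**
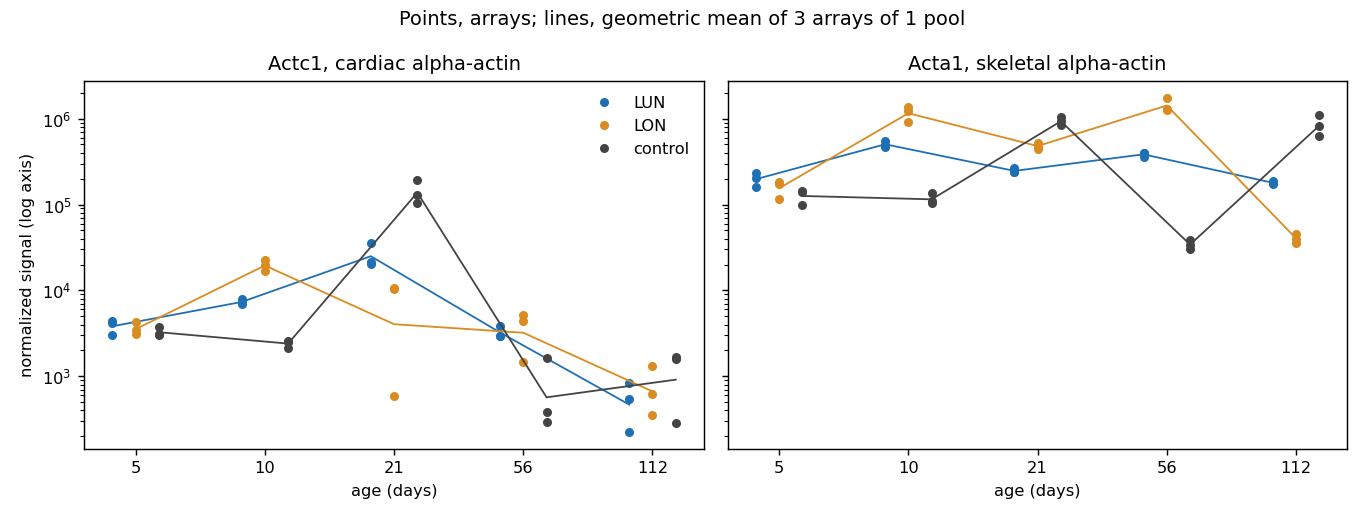
Normalized signal (log axis) of the cardiac alpha-actin Actc1 (left) and the skeletal alpha-actin Acta1 (right) against age in days for LUN, LON and control; points are arrays and lines join geometric means of 3 arrays. At day 112 the control arrays of Acta1 lie between 626000 and 1100000, while those of Actc1 lie between 282 and 1670.

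Mb, the oxygen-binding myoglobin of oxidative fibres, shared features of the fast and the slow genes. It was highest in LON day 10 (13200, 15100 and 12900) and next in control day 112 (13000, 10400 and 10700). At day 10 LUN gave 7270, 6170 and 6880, against 705, 1250 and 832 in control arrays. The differences from control at day 10 were 2.91 in LUN (adjusted p = 0.0123) and 3.93 in LON (adjusted p = 2.56e-04), and the one in LUN was lost without control replicate 1 or 3. At day 112 Mb gave 845, 534 and 1090 in LUN and 1320, 736 and 614 in LON, 14.3-fold and 13.5-fold below control. At day 21 the differences of -0.79 and -0.44 did not pass, while all fast genes did.

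Among the 11 measured genes common to striated fibres, Acta1, Ckm, Eno3, Pgam2 and Ttn were called in each of the 8 diet comparisons from day 10 to day 112, with the same signs as the fast genes. Eno3 (muscle enolase) and Pgam2 (muscle phosphoglycerate mutase) are enzymes of glycolysis, and Ttn is the molecular spring of the sarcomere. In LON day 56 Eno3 gave 62200, 68900 and 70700, against 8480, 8040 and 6540 in control arrays, and Pgam2 gave 36300, 26700 and 39400, against 1790, 1740 and 405. Pygm was called higher in LON day 56 (62800, 50300 and 66500, against 1860, 1920 and 2530 in control arrays). The M-band proteins Myom1 and Myom2 were called in some comparisons only. Tcap, Ldb3 (the Z-disc protein ZASP) and Ryr1 had 0 calls by limma in 18 comparisons, with 10 of their 54 tests at an unadjusted p under 0.05. Tcap was dim, with signals between 204 and 2840. Ryr1 read 404, 1340000 and 1120 in the 3 arrays of LUN day 21, so that its highest group mean rests on 1 spot.

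The 3 genes shared with smooth muscle did not move together. Tpm1 had a correlation of 0.97 with the mean of the other members. Tpm2 gave between 24800 and 101000 over the 45 arrays and was called once, lower in LON day 112 (30400, 29900 and 31000, against 59100, 58400 and 63000 in control arrays), a call lost without 4 of the 6 single arrays (adjusted p at most 0.0847). Des, desmin of the intermediate filaments, had 0 calls by limma (3 of 18 tests at an unadjusted p under 0.05), with differences of 1.19 in LON day 10 and 0.97 in LON day 56.

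Other genes of skeletal muscle were read from a list of 56, of which 38 were measured. In LON, 5 were higher at day 10, 1 was lower at day 21, 8 were higher at day 56 and 9 were lower at day 112, beside 0.66%, 0.485%, 0.654% and 0.897% of all probes in the same directions. In LUN, 3 were higher at day 10, 2 lower at day 21, 3 higher at day 56 and 3 lower at day 112, beside 0.573%, 1.14%, 0.161% and 0.376% of all probes. The list as a whole moved less than the 30 members. In LON its median difference was 0.697 at day 10 (33 positive, 5 negative) and -0.519 at day 21 (11 and 27). It was 0.771 at day 56 (30 and 8) and -0.591 at day 112 (10 and 28). In LUN the medians at these ages were 0.187 (24 and 14), -0.47 (13 and 25), 0.351 (27 and 11) and -0.189 (15 and 23). Myot, the Z-disc protein myotilin, had the largest difference in LON day 56 (5.00, adjusted p = 2.66e-09). It gave 9940, 10700 and 12600 there, against 215, 156 and 1220 in control arrays. Tmod4, a tropomodulin that caps thin filaments in skeletal muscle, gave 10700, 12200 and 12600, against 406, 896 and 590 (4.30, adjusted p = 1.79e-07). Of 8831 further genes above the median probe, those whose 15 group means were most like the mean of the 30 members were Myot (r = 0.98), Hrc (0.96), a calcium-binding protein of the sarcoplasmic reticulum, Hjv (0.96) and Tmod4 (0.96), followed by Rpl3l, Apobec2, Ckmt2, Srl, Mstn, Asb5, Crocc, Sgca, Stac3, Tmem38a and Eef1a2 (0.93 to 0.79). These correlations are descriptions over 15 groups that share arrays.

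Markers of other cells were read beside these results, and their part in them was not tested. The 7 measured myogenic factors had 0 calls by limma in the 10 diet comparisons (14 of 70 tests at an unadjusted p under 0.05). Myod1, Myf5 and Pax7 were below the median probe in 14, 15 and 15 of the 15 groups. Myog, Myf6 and Pax3 were below it in 11, 12 and 13 groups, and Mef2c in 0. Of 4 listed genes of developing muscle, Myl4 and Chrng were measured. Chrng was lower by limma at day 112 in LUN (-3.34, adjusted p = 0.0303) and LON (-2.86, adjusted p = 0.0384). All probes lower there were 0.376% and 0.897%, and the control pool held the array of lowest agreement. Neither gene had another call in the diet comparisons. Of 9 smooth muscle genes, 1 was lower in LUN day 21 and none was called in the other 9 diet comparisons, and their summed signal was 101000 to 135000 in LUN and 126000 to 144000 in LON at day 56, against 124000 to 135000 in control arrays. Of 11 genes of tendon and fascia, 1 was lower in LUN day 10 and 1 higher in LON day 112. The latter was Col3a1 (difference 3.3, adjusted p = 0.0283). Its control pool held the array of lowest agreement, and the summed signal of the list ran from 68800 to 1390000 over those control arrays. Of 5 genes of nerve and Schwann cells, 0 were called by limma in the diet comparisons (6 of 50 tests at an unadjusted p under 0.05). In those comparisons 0.0424% to 1.57% of all probes were called in each direction, so 0 calls in such short lists lies near that share.

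Lists of fat, epithelial, immune and vascular genes had calls at some of the same ages as the muscle genes, and their part in the results was not tested either. The shares of all probes called in the directions not given above were, in LUN, 0.86% lower at day 5, 0.818% lower at day 10, 1.57% higher at day 21, 0.0424% lower at day 56 and 0.176% higher at day 112. In LON they were 1.06% higher at day 5, 0.0788% lower at day 10, 0.918% higher at day 21, 0.881% lower at day 56 and 1.48% higher at day 112.

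Of 14 measured brown fat genes, 2 were higher in LON at day 10, 2 lower in LUN at day 21 and 2 lower in LON at day 112, the directions of the muscle genes there. These were in each case Ucp1, the uncoupling protein of brown adipocytes, and Fabp3, a fatty acid binding protein that heart and skeletal muscle also express. Ucp1 differed by 1.21 in LON at day 10, -2.26 in LUN at day 21 and -0.93 in LON at day 112, and Fabp3 by 1.64, -2.37 and -3.83 in the same comparisons. Fabp3 was also lower in LUN at day 112 (-2.24), where Slc27a2 was higher. Against the direction of the muscle genes, Otop1 was higher in LON at days 21 and 112 and Elovl3 at day 21. At day 5, 3 brown fat genes were lower in LUN and 2 higher in LON. At day 56 in LON the direction was opposite to that of the muscle genes: Ucp1 gave 62600, 65200 and 62900 in LON against 121000, 114000 and 140000 in control arrays (difference -0.97, adjusted p = 0.0178), and Fabp3 was lower too (-1.49). Ucp1 was not called in LUN at days 10, 56 and 112 or in LON at day 21. The summed signal of the list was 1230000 to 1410000 in LON at day 10, against 727000 to 849000 in control arrays, and 1110000 to 1300000 in LON at day 56, against 1850000 to 1880000. Over the 15 groups Ucp1 had a correlation of 0.32 with the fast class, 0.36 with the slow class and 0.69 with Actc1.

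Of 11 measured genes of mammary and skin epithelium, 2 were higher in LUN and 3 in LON at day 56, and 2 were higher in LON at day 10, where muscle genes were higher too. At day 56 all 11 had a positive difference in LUN (median 1.77) and 8 of 11 in LON (median 1.09). The keratin Krt18 differed by 3.06 and 2.59 and the casein Csn3 by 2.81 and 2.11 in LUN and LON, and Epcam, an epithelial adhesion molecule, by 2.04 in LON. At day 10 in LON the basal keratins Krt5 and Krt14 differed by 5.23 and 3.63. Both were also higher in LON at day 5, where 2 muscle genes were lower, and at day 21, where 18 were lower. The summed signal of the list at day 56 was 27700 to 47200 in LUN and 18200 to 24200 in LON, against 9340 to 10700 in control arrays, and at day 112 it was 8770 to 12700 in LUN and 7500 to 9220 in LON, against 13400 to 39100. No gene of the list was called at day 112, where the control pool held the array of lowest agreement (0.806).

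Of 9 lymph node genes, 1 was higher in LUN at day 10 and 2 were higher in LON at day 112. Of 8 endothelial genes, 1 was lower in LUN and 1 higher in LON at day 21, and of 7 macrophage genes, 1 was lower at day 10 and 1 higher at day 21 in LUN. Of 10 measured white adipocyte genes, LUN had 4 lower at day 5, then 2 (day 10) and 3 (day 21), LON had 1 lower at day 10, and neither group had a call at day 56 or day 112. The gene lower in all 4 was Lep, leptin.

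With the pool as the unit, that is, 15 pool means with diet and age as additive terms and 8 residual degrees of freedom, 0 of the 30 genes were called by limma for LUN or for LON, and 0 had an unadjusted p under 0.05. Over all probes 0 were called for LUN and 71 for LON, and 6.40% and 13.7% had an unadjusted p under 0.05. The medians of the 30 genes over all ages were 0.32 for LUN and 0.42 for LON, small beside the differences of opposite sign at single ages. Differences of opposite sign cancel in such a mean. They also add to the error of this fit, which is the deviation of the diet differences between ages. The fit therefore cannot test a difference at a single age.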

How the data were processed

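RNA pools of inguinal fat from 15 groups were each measured on 3 single-colour arrays (Applied Biosystems Mouse Genome Survey, 45 arrays, chemiluminescence). The deposited raw values are linear intensities, not normalized between arrays, and no source used here says whether a background was subtracted. The authors also deposited quantile-normalized log2 values of the same arrays, used here as an alternative; they correlated with the values used here at 0.9995 or more on every array. The raw intensities were quantile-normalized over all 45 arrays in R 4.3.3 and fitted as log2 values with limma 3.58.1 (15 group means, eBayes, two-sided tests, prior degrees of freedom 2.74), with Benjamini-Hochberg adjustment over 33012 probes and a threshold of 0.05. No probe was filtered out in the main fit and no detection call was used. Gene names came from the platform annotation: 14411 probes carried 1 symbol, for 13840 genes, and the brightest probe stood for a gene; Myl1, Atp2a1 and Ttn had 2 probes each. Depth does not apply to arrays, whose number limits the precision.

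Genes whose array values are given were, in each role, the one with the highest mean signal and the one with the widest range of group means, and those least like the other members; outside the list, up to 4 called genes per list with the largest change and the 15 genes most like the members' mean. Actn3, Atp2a1, Mybpc2, Tnnt3, Tnnc1, Eno3, Pgam2, Pygm, Ttn, Ryr1 and Tcap were named in addition, after their values were seen. The members and lists were chosen with earlier results of these data known. Alternatives were median scaling, cyclic loess, the deposited log2 values, an offset of 50, only probes above the median signal, all probes of a gene, only the compared groups, the methods' t-test, a replicate block, pools as units, and leaving out each array. The fit was tested on simulated data. Figures were drawn with matplotlib 3.10.9.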

Additional observations from a re-analysis of the deposited data

Results flagged for a closer look

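The change from day 10 to day 21 differed between the diets by a limma interaction contrast for 20 of the 30 muscle genes in LUN minus control and for 20 in LON minus control. In LUN minus control the differences were -2.97 for Myl1, -3.75 for Pvalb, -3.32 for Mybpc1, -4.07 for Actc1, -3.70 for Mb, -4.05 for Acta1, -3.90 for Ckm and -3.91 for Tpm1, on the log2 scale. In LON minus control they were -3.66 for Myl1, -5.45 for Pvalb, -3.98 for Mybpc1, -8.10 for Actc1, -4.37 for Mb, -4.29 for Acta1, -5.17 for Ckm and -5.46 for Tpm1. Both contrasts use the same 6 control arrays. Among the genes above, Actc1 in LUN lost its call without any 1 of the 12 arrays (adjusted p 0.0523 to 0.102), Mb in LUN without 11 of them (0.0444 to 0.0958) and Mb in LON without 2 (0.0190 to 0.0543). The value of -8.10 for Actc1 in LON was -6.74 without LON day 21 replicate 3, the array in which Actc1 read 597, and kept its call.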

How the results depend on the processing

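With the deposited values and with an offset of 50, the counts of muscle genes called stayed within 1.5 times those given above in all 18 comparisons. The values that follow are counts of genes called. Median scaling gave 3 at day 5 in LUN, 1 at day 5 in LON, 10 at day 21 in LON and 1 for day 56 against day 21 in LUN; it moved the median of all probes by -0.24 (LON, day 56) to 0.24 (the LUN interaction), and quantile normalization by -0.10 to 0.062. Cyclic loess gave 5 for day 56 against day 21 in LUN, and probes above the median signal alone gave 2 at day 5 in LUN and 7 for day 56 against day 21 in LUN. Fitting only the compared arrays gave 0, 12, 0, 8 and 0 in LUN at days 5, 10, 21, 56 and 112, 0 and 0 in LON at days 5 and 21, 0 and 3 for day 21 against day 10 in LUN and LON, and 1 and 0 for day 56 against day 21. The methods' t-test at an unadjusted p under 0.05 gave 8 in LUN and 6 in LON at day 5, and in LUN 11 for day 21 against day 10 and 9 for day 56 against day 21. After Benjamini-Hochberg it gave 0, 7, 7, 0 and 0 in LUN at the 5 ages, 0, 0, 9 and 13 in LON at days 5, 21, 56 and 112, 2 and 2 for day 21 against day 10 in LUN and LON, and 0 for day 56 against day 21 in LON. Leaving out 1 array gave 0 to 1 at day 5 in LUN, 1 to 2 at day 5 in LON and 1 to 4 for day 56 against day 21 in LUN. Without the 3 arrays of lowest agreement, a choice made after seeing the data, the last was 4. Pygm at day 112 in LUN was 0.06, against -1.79 without control replicate 2 and -1.81 without those 3 arrays. No general pairing by replicate number was seen. Deviations of same-numbered arrays of other groups had a mean correlation of -0.0031 (-0.38 to 0.63). For different numbers it was 0.0018 (-0.59 to 0.58). A mean over all groups cannot show a pairing of single groups or an effect of run order. With a replicate block 20 genes were called at day 10 in LUN, 21 in LON, and no count moved by over 1.5 times. The cause of these changes was not tested.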
